A study of Mus musculus with 6 samples.

Results

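The genes described are 8 markers of vessel-lining cells, chosen by name from the 12163 genes of the deposited table. Kdr, Tek, Robo4 and Plvap mark blood endothelium, and Prox1, Mmrn1, Reln and Pdpn mark lymphatic endothelium. All 8 were found, and all 8 passed the filter on low values. They were measured by RNA sequencing of fat from wild type C57BL/6 mice, an inbred strain, in 3 libraries made before grafting and 3 made 7 days after grafting. The submitters call the 3 libraries of a group biological replicates. Nothing further says that they came from separate animals, so the p-values measure the spread between these libraries. The labels used here give no depot, sex, age or graft site, and they do not say how much of a graft came from the host. In a piece of tissue, fewer cells of a type and less RNA per cell cannot be told apart.

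Blood endothelium lines arteries, veins and capillaries, and its growth is driven by VEGF ligands acting on the receptor encoded by Kdr. The receptor encoded by Tek, also called Tie2, is stabilising when bound by angiopoietin 1, while angiopoietin 2 often opposes that signal and loosens vessels. Lymphatic endothelium arises from veins under the transcription factor encoded by Prox1 and grows in response to VEGF-C. Fat that has been moved without its vessels depends on new or reconnected vessels. Several of the 8 genes are not confined to endothelium as background knowledge has it: Pdpn is also made by fibroblasts, mesothelium and inflammatory macrophages, Mmrn1 by platelets and their precursors, Reln by neurons, and Tek by some pericytes.

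The libraries held 12846005 to 15443409 normalized counts over the listed genes, a normalized count being the number of reads divided by a size factor that the authors set for each library. The table had been selected for difference: the limma fit gave 10772 of 10854 tested genes an unadjusted p below 0.05, and 51 a log2 fold change within 0.25 of 0. A gene missing from it was not analysed here, and its absence is not read as a result. Among the tested genes, 39.2% were called lower in grafts and 41.3% higher at an adjusted p under 0.05, 80.4% in all, and the groups did not overlap for 97.6%. The median log2 fold change of all tested genes was 0.28. Log2 fold changes are of (normalized count + 1), graft over before grafting, and each adjusted p is from limma with Benjamini-Hochberg adjustment over all annotated genes.

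Of the 8 genes, 6 were called lower in grafts and 2 higher. Of the 4 blood endothelial genes, Kdr, Tek and Robo4 fell to between 37.8% and 45.2% of their level before grafting, while Plvap was 1.3-fold higher under the authors' size factors and not called, or lower, under 4 other scalings. Of the 4 lymphatic genes, Prox1 and Mmrn1 fell to 7.63% and 7.3% and Reln to 28.1%, while Pdpn was 29.1-fold higher. The groups did not overlap for any of the 8, against 97.6% of all tested genes, so that the separation is near that of the table as a whole. All 8 were called in 1 direction or the other, against 80.4% of tested genes. By direction, 6 of the 8 were called lower against 39.2%, and 2 higher against 41.3%. No test of these shares was made. The members' log2 fold changes ran from -4.87 to 4.85 with a median of -1.28.

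Promoter sequences are shown for Kdr and Tek, blood endothelial genes that fell together, and for Pdpn, which rose. They come from RefSeq on GRCm38.p6, matched by symbol, and give the 250 bases before the transcription start in the direction of the gene. RefSeq promoters were matched for 7 of the 8 genes, and Plvap was not matched. Capitals mark GGAA and its reverse complement TTCC, the core of the sites bound by ETS factors, a family that includes the endothelial regulators ERG and FLI1.
Kdr, chr5:75978456-75978705, minus strand: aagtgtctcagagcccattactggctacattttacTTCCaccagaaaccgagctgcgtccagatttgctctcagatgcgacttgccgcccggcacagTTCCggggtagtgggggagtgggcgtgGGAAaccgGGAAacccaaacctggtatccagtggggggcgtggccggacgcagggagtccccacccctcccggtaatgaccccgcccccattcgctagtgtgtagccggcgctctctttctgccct
Tek, chr4:94739039-94739288, plus strand: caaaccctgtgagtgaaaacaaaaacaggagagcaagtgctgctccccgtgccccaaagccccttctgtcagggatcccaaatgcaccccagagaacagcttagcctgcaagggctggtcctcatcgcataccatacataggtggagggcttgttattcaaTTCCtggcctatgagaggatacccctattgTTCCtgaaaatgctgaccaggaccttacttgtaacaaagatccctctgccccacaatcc
Pdpn, chr4:143299565-143299814, minus strand: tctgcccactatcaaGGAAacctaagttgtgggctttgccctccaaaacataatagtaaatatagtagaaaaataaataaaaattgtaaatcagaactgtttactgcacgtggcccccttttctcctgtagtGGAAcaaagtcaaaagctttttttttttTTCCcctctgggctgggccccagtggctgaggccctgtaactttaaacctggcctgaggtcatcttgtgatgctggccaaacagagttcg

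GGAA, searched on both strands, had 4 matches in the Kdr window, 2 in that of Tek, 3 in that of Robo4 and 3 in that of Pdpn. There were 9 in the window of Mmrn1, 2 in that of Reln, and 2 and 5 at the 2 starts of Prox1. It was found in 93.4% of 32851 RefSeq promoter windows of the same length, with a median of 3 matches. A match is thus ordinary, and the count of Mmrn1 was the furthest above that median. The longer ETS sequence CCGGAA, which contains the shorter core and was likewise searched on both strands, was present in the windows of Kdr and Reln and in 12.0% of all windows. The sequence ACGTG, the core of hypoxia response elements, was present in the windows of Pdpn and Reln and in 16.6% of all windows. In Pdpn and in Reln its matches on the plus and minus strands overlapped. AGATAA, known from sites of the GATA factors and found in 9.99% of windows, and TGANTCA, known from AP-1 sites and found in 6.75%, had no match in any of the 7 genes' windows, including both starts listed for Prox1. A match is a description of these letters and does not show a binding site.

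Kdr encodes VEGF receptor 2, the main signalling receptor for VEGF-A on blood endothelium (chromosome 5, 75932827 to 75978458, minus strand, GRCm38). Its normalized counts were 3344, 4370.2 and 3832 before grafting and 1607, 1479 and 1277 in grafts 1, 2 and 3. Every graft was below every library before grafting. The means were 3849 ± 514 and 1454 ± 166 (SD, n = 3), which is -1.40 on the log2 scale (SE 0.13, 95% interval -1.70 to -1.10, adjusted p = 0.000137, limma).

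Tek encodes the angiopoietin receptor TIE2 (chromosome 4, 94739289 to 94874976, plus strand). It had 1245, 1186 and 1123 normalized counts before grafting and 557.4, 505.3 and 545.0 in grafts. This was the most even fall of the set, with replicates within a coefficient of variation of 5.15% before and 5.08% after. The log2 fold change was -1.14 (SE 0.10, 95% interval -1.37 to -0.92, adjusted p = 8.04e-05, limma).

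Robo4 encodes an endothelial roundabout receptor that binds UNC5B and limits vessel leak (chromosome 9, 37401897 to 37415115, plus strand). Its normalized counts were 1296, 1614 and 1442 before grafting and 814.5, 634.2 and 506.5 in grafts. The grafts spread more widely for Robo4 than for Kdr or Tek, with a coefficient of variation of 23.7%, and stayed below every library before grafting. The log2 fold change was -1.17 (SE 0.18, 95% interval -1.58 to -0.77, adjusted p = 0.00187, limma). The intervals of Kdr, Tek and Robo4 overlap one another, and no test of a difference between the 3 genes was made.

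Plvap encodes the protein of the diaphragms that close caveolae and the pores of fenestrated capillaries (chromosome 8, 71497765 to 71511752, minus strand). It had 2162, 2236 and 1934 normalized counts before grafting and 2729, 2694 and 2802 in grafts. The 3 grafts had a coefficient of variation of 2.02% and lay above all libraries before grafting. The log2 fold change was 0.38 (SE 0.09, 95% interval 0.17 to 0.59, adjusted p = 0.0232, limma), which fell to between 0.17 and 0.25 and missed the threshold with median ratios, equal listed totals or equal upper quartiles, and turned to -0.40 with ribosomal protein genes at no change (the ribosomal scaling). The call was also lost without 1 library for 5 of the 6 libraries, replicate 2 before grafting being the exception, with adjusted p up to 0.0887. A gene on the opposite strand, Gtpbp3, overlaps Plvap, and the use of strand in counting is not given in the sources used here.

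Per kilobase of exonic length, the ratio of Plvap to Kdr in the same library was 2.94, 2.32 and 2.29 before grafting and 7.72, 8.28 and 9.97 in grafts. A ratio within a library does not move with its scaling, and here the groups did not overlap. Robo4 over Kdr went from 0.660, 0.629 and 0.641 to 0.863, 0.730 and 0.675, a small shift without overlap. Tek over Kdr was 0.714, 0.520 and 0.562 before and 0.665, 0.655 and 0.818 after, with overlapping groups. Prox1 over Kdr went from 0.0743, 0.0429 and 0.0619 to 0.0141, 0.00353 and 0.0183, so the lymphatic gene fell further than the blood endothelial gene in every graft. These ratios show unequal change between genes and not which of them changed.

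**Figure D1:**
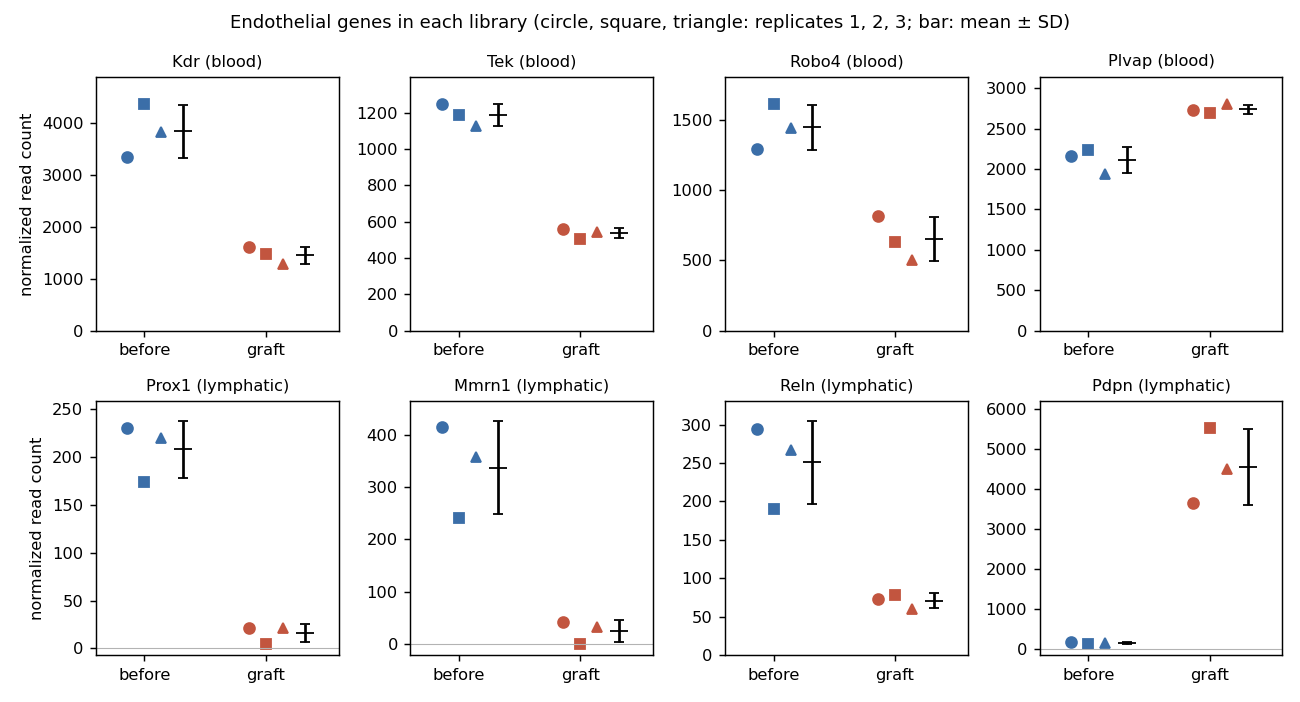
Normalized read count (vertical axis, linear, a separate scale for each gene) of the 8 genes in the 3 libraries before grafting (blue) and the 3 grafts (red), with circle, square and triangle for replicates 1, 2 and 3 and a black bar for mean ± SD. Kdr, Tek, Robo4, Prox1, Mmrn1 and Reln are lower in every graft, Plvap lies between 2694 and 2802 in grafts against 1934 to 2236 before, and Pdpn is at 3648 or more in every graft.

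Prox1 encodes the transcription factor that sets lymphatic identity (chromosome 1, 190118035 to 190170714, minus strand). Its normalized counts were 230.7, 174.2 and 220.3 before grafting and 21.1, 4.8 and 21.8 in grafts. Graft 2 was lowest, with 5 reads against 21 and 22 in the other grafts, and no graft came near a library before grafting. The means were 208.4 ± 30.1 and 15.9 ± 9.6 (SD, n = 3), which is -3.86 on the log2 scale (SE 0.51, 95% interval -5.04 to -2.68, adjusted p = 0.00102, limma). The size depends on the lowest graft: it was -3.21 without graft replicate 2 and -3.15 with a pseudocount of 10. The antisense genes Prox1os and Gm28172 overlap Prox1, so reads of the strands may not be told apart.

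Mmrn1 encodes multimerin 1, a secreted protein of lymphatic endothelium and platelets (chromosome 6, 60924976 to 60989378, plus strand). It had 414.1, 240.1 and 357.1 normalized counts before grafting and 41.2, 0.0 and 32.6 in grafts. Graft 2 had 0 reads, and a count of 0 allows up to 3 reads, or 2.9 normalized counts, in that library. The ratio of the means, 337.1 ± 88.7 to 24.6 ± 21.7, was 13.7-fold. The fitted log2 fold change of -4.87 (SE 1.30, 95% interval -7.89 to -1.86, adjusted p = 0.0399, limma) depends on how the 0 is handled. Without graft replicate 2 it was -3.13 with an adjusted p = 0.000259, and the call was lost without replicate 1, 2 or 3 before grafting, with adjusted p from 0.126 to 0.145.

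Reln encodes reelin, a large secreted glycoprotein that lymphatic endothelium makes and that promotes the coating of collecting vessels by muscle cells (chromosome 5, 21884454 to 22344702, minus strand). Its normalized counts were 294.8, 190.5 and 267.5 before grafting and 73.3, 78.6 and 59.4 in grafts. The grafts were close to one another, and graft 2, lowest for Prox1 and Mmrn1, was highest for Reln. The log2 fold change was -1.80 (SE 0.22, 95% interval -2.32 to -1.29, adjusted p = 0.000648, limma). Reln over Prox1, per kilobase, was 0.452, 0.386 and 0.429 before and 1.23, 5.73 and 0.964 in grafts. Among 7 genes that overlap Reln in the annotation are antisense genes and pseudogenes, none of them in the table.

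Pdpn encodes podoplanin, a mucin-like membrane protein that keeps lymph and blood apart by binding CLEC-2 on platelets (chromosome 4, 143267431 to 143299564, minus strand). It had 181.4, 134.7 and 153.4 normalized counts before grafting and 3648, 5532 and 4499.8 in grafts. The lowest graft was far above the highest library before grafting. The means were 156.5 ± 23.5 and 4560 ± 943 (SD, n = 3), which is 4.85 on the log2 scale (SE 0.17, 95% interval 4.45 to 5.24, adjusted p = 1.65e-06, limma). Of the 10854 tested genes, 224 had a log2 fold change at least as high. Pdpn over Prox1, per kilobase, went from 3.63, 3.57 and 3.22 before grafting to 799, 5270.0 and 955 in grafts. By their own normalized counts, Pdpn was higher and Prox1 lower in every graft than in every library before grafting.

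Per kilobase of exonic length, the order of the levels before grafting was Plvap (1060.0 ± 79.3), Kdr (426 ± 56.9), Robo4 (274 ± 30.0), Tek (251 ± 13.0), Pdpn (86.2 ± 12.9), Mmrn1 (57.4 ± 15.1), Prox1 (24.8 ± 3.58) and Reln (10.6 ± 2.28). The neighbours Robo4 and Tek lay within their spread. In grafts Pdpn came first (2510.0 ± 519), ahead of Plvap (1380.0 ± 27.8), Kdr (161 ± 18.4), Robo4 (123 ± 29.2), Tek (114 ± 5.78), Mmrn1 (4.19 ± 3.70), Reln (2.97 ± 0.418) and Prox1 (1.90 ± 1.14). In grafts the neighbours Kdr and Robo4, Robo4 and Tek, Mmrn1 and Reln, and Reln and Prox1 lay within their spread. Pdpn thus went from the 55.0th to the 97.7th percentile of all listed genes on this scale, Kdr from 88.1 to 68.1, and Plvap was at 95.5 and 95.4.

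The libraries before grafting differed in a way that the 4 lymphatic members shared. All 4 were highest in replicate 1 and lowest in replicate 2, while Kdr, Robo4 and Plvap were highest in replicate 2. Other lymphatic markers were mixed: Ackr2 and Foxc2 had the order of the 4 members, while Lyve1 and Tbx1 were highest in replicate 2. The summed level of 6 lymph node markers, all in the table (the B cell genes Ms4a1, Cr2 and Fcer2a, the homing receptor Ccr7, and Glycam1 and Chst4 of high endothelial venules), was 7197, 3571 and 6301 in replicates 1, 2 and 3, the same order as the 4 lymphatic members. In grafts that sum was 128.6, 472.3 and 122.7, and all 6 markers were called lower. The call for Ccr7 was lost without any 1 of 4 libraries, the exceptions being graft replicates 2 and 3. A lymph node itself holds lymphatic vessels, and the part of these cells in the falls of Prox1, Mmrn1 and Reln was not tested. Graft 2 had the lowest Prox1 and Mmrn1 and the highest lymph node sum of the grafts, but Ccr7 alone gave 332.6 of its 472.3. Ms4a1 and Cr2 were also highest in graft 2, while Glycam1 was highest in graft 3 and Fcer2a and Chst4 in graft 1.

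In grafts, Kdr, Tek and Robo4 were highest in graft 1 and Plvap in graft 3. Kdr and Robo4 were lowest in graft 3, and Tek and Plvap in graft 2. The summed level of 8 adipocyte markers, among them Adipoq, Cidec and Lep, was 24101, 8622 and 6112 in grafts 1, 2 and 3 and 307607 to 467230.4 before grafting, and all 8 were called lower. Its part in the blood endothelial values was not tested.

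Markers of other cells that can make podoplanin moved as well. Of 9 fibroblast markers, 7 rose, among them Col1a1, Col3a1, Postn and Pdgfra, and Dpt fell, while 4 were called higher under the ribosomal scaling. Their summed level was 117026 to 147267 before grafting and 624808, 1060066 and 956299 in grafts 1, 2 and 3. Col1a1 and Col3a1 made up most of that sum and set its order over the grafts, which was that of Pdpn. Thy1 and Fap also had that order, while Postn, Pdgfra, Dcn and Lum were highest in graft 3. All 8 macrophage markers rose, among them Msr1, Itgam, Fcgr1 and Lyz2, from a sum of 23307 to 26376 up to 177096 to 198642. Of the 8 mesothelium markers 6 were in the table, with low sums of 158.0 to 193.8 before and 124.6 to 206.9 after. Wt1, a mesothelial and stromal transcription factor, was at 0 in every library before grafting and at 97.4, 63.0 and 76.2 in grafts, while Lrrn4 and Gpm6a fell. Upk3b, a defining mesothelial marker, was at 0 before grafting, with a graft mean of 9.7 ± 12.5. Tnfsf11, the cytokine RANKL and the 1 listed gene of 4 lymph node stroma markers, rose from 48.6 ± 19.7 to 689.7 ± 300.8. The part of these cells in the Pdpn result was not tested.

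For Mmrn1, the platelet markers were split: Ppbp and Pf4 rose, Itga2b and Clec1b fell, and Treml1, at 3.3 ± 2.4 and 13.5 ± 1.7, rose with a call lost without 1 library for 5 of 6 libraries, replicate 2 before grafting being the exception. The summed level of the 5 listed platelet markers was 671.6 to 773.1 before grafting and 13841, 6097 and 3751 in grafts. Mmrn1 thus fell while Pf4, a platelet and macrophage chemokine, went from 407.1 ± 21.2 to 6546 ± 4096. For Reln, which nerves can also hold, all 5 Schwann cell markers fell, with Cdh19 at -2.87 and S100b at -2.19 on the log2 scale, and their sum went from between 2459 and 2754 to between 1192 and 1815. The calls of Sox10 and Mbp in that list were each lost without 1 library for 5 of 6 libraries, the exceptions being graft replicate 1 for Sox10 and graft replicate 2 for Mbp. Their part in the Reln result was not tested.

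Other blood endothelial markers mostly went the way of Kdr. Of 30 such genes 18 were in the table and tested, of which 11 were called lower, 2 higher and 5 neither, with a median log2 fold change of -0.78 against 0.28 for all tested genes. Cd300lg, a mucin-binding receptor of capillary endothelium, went from 3282 ± 528 to 336.0 ± 160.5, Ushbp1 fell by 2.30 on the log2 scale, and Nos3, the endothelial nitric oxide synthase, by 1.87. Cd93 and Ecscr, surface proteins linked to endothelial migration, rose instead: Cd93, which myeloid cells also make, went from 2012 ± 201 to 6681 ± 1212 and Ecscr from 309.7 ± 41.7 to 749.6 ± 51.5. With ribosomal protein genes at no change Cd93 was still called, and Ecscr, at 0.50, was not (adjusted p = 0.134, limma). Not analysed here, being outside the table, were Pecam1, Cdh5, Tie1, Emcn, Erg, Fli1, Sox18, Vwf, Clec14a, Icam2, Rasip1 and Tal1. The count of 11 was 8 without replicate 2 or replicate 3 before grafting and 13 without graft replicate 1.

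Of 16 other lymphatic marker genes, 14 were in the table and 13 tested, of which 6 were called lower and 5 higher, with a median log2 fold change of -0.84. With ribosomal protein genes at no change 7 were called lower and 2, Nrp2 and Nts, higher. Foxc2, called higher at 1.64 on the log2 scale, was not called under any of the 4 other scalings and lost its call without 1 library for 5 of 6 libraries, graft replicate 3 being the exception. Itga9 and Maf, the remaining genes called higher, were at 0.34 and -0.14 under the ribosomal scaling. Lyve1, the hyaluronan receptor of lymphatic capillaries and of some resident macrophages, went from 2014 ± 145 to 245.7 ± 150.1. Its graft values were 357.5, 304.5 and 75.2. Tbx1, a transcription factor of lymphatic growth, went from 133.8 ± 29.0 to 7.9 ± 2.8, Cldn11 from 65.2 ± 29.1 to 4.3 ± 5.9, and the scavenging chemokine receptor gene Ackr2 from 139.0 ± 27.4 to 23.7 ± 12.0. Nrp2, the coreceptor for VEGF-C, rose from 1664 ± 58.0 to 6172 ± 620, and Nts, the gene of neurotensin, from 1.4 ± 2.3 to 59.5 ± 36.8. Nrp2 is also made by myeloid and stromal cells. Flt4, the lymphatic VEGF receptor gene, was outside the table. The chemokine gene Ccl21a, at 4.9 ± 3.9 before and 0 in every graft, was too low to test.

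**Figure D2:**
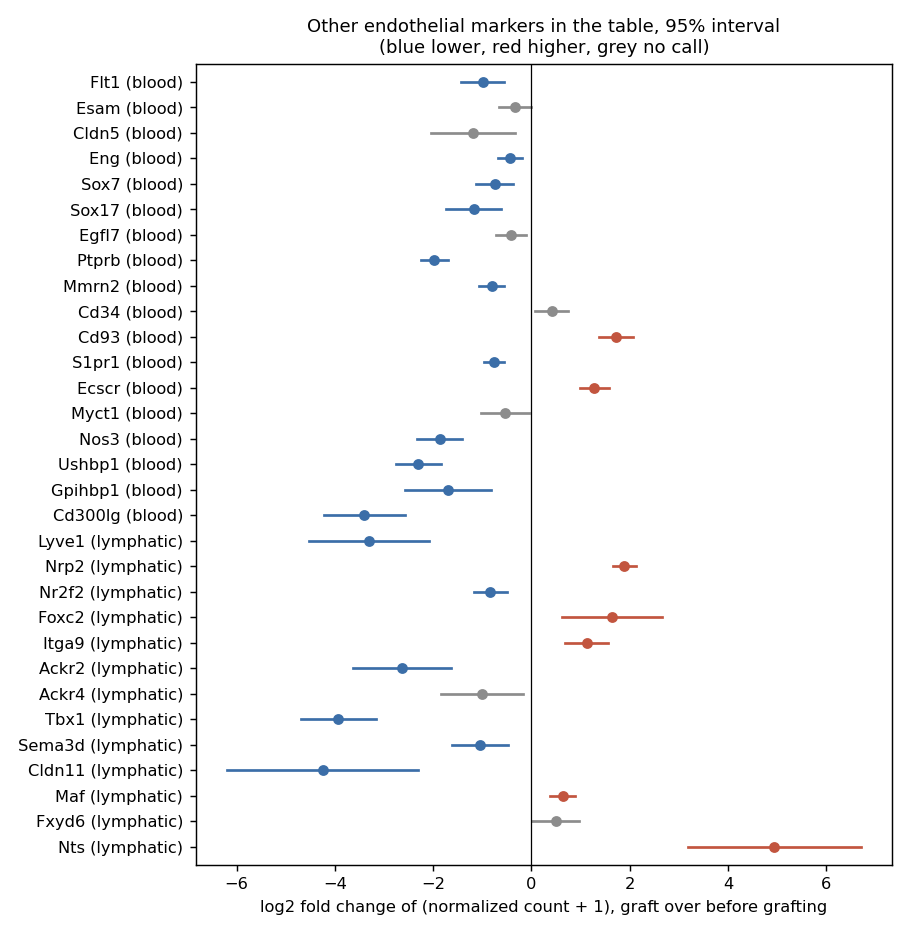
Log2 fold change of (normalized count + 1), graft over before grafting (horizontal axis), of the other blood and lymphatic endothelial markers tested, with lines for the 95% interval of the limma fit, blue for called lower, red for called higher and grey for no call. Of the blood markers 11 lie in blue and 2 in red, and of the lymphatic markers 6 in blue and 5 in red, from Cldn11 at -4.24 to Nts at 4.94.

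The ligands and receptors of the VEGF family were split by member. Of the 7 that were tested, 3 rose, 3 fell and Vegfa did not pass the test. Vegfa had 5049, 6376 and 4847 normalized counts before grafting and 3225, 5395 and 3149.6 in grafts, so the groups overlapped, and its log2 fold change was -0.50 (SE 0.22, adjusted p = 0.246, limma). Vegfa was called lower without graft replicate 2 (-0.76, adjusted p = 0.0119), with ribosomal protein genes at no change (-1.28, adjusted p = 0.00303), and when p-values were adjusted over tested genes only (adjusted p = 0.0481), by limma. Vegfb, which supports fatty acid handling and cardiac vessels, went from 1678 ± 278 to 233.3 ± 27.6. Pgf, placental growth factor, a ligand of the receptor encoded by Flt1, went from 64.1, 82.1 and 66.9 to 1149, 673.0 and 421.4. Vegfc, the lymphatic growth factor, went from 78.1 ± 8.4 to 310.0 ± 41.4, which is 1.97 on the log2 scale (SE 0.18, adjusted p = 0.000114, limma).

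Among the receptors, Flt1, which encodes VEGF receptor 1, went from 2937 ± 592 to 1476 ± 311, and Nrp1, the VEGF-A coreceptor, from 3496 ± 466 to 1755 ± 354. The log2 fold changes of these genes were -0.99 and -1.01, beside -1.40 for Kdr. Nrp2 over Nrp1, per kilobase, went from 0.441, 0.348 and 0.403 to 2.25, 2.93 and 3.85. Vegfc over Vegfb, per kilobase, went from 0.0377, 0.0236 and 0.0324 to 0.683, 0.894 and 1.08. Neither ratio overlapped between the groups.

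The genes around the receptor encoded by Tek showed the 2 angiopoietins moving apart. Angpt1, the activating ligand made by mural and stromal cells, went from 787.3 ± 107.9 to 345.5 ± 60.3. Angpt2, released by activated endothelium, had 232.7, 195.5 and 261.6 normalized counts before grafting and 3324, 1769.9 and 954.6 in grafts, which is 2.96 on the log2 scale (SE 0.40, adjusted p = 0.00131, limma). Angpt2 over Angpt1, per kilobase, was 0.478, 0.306 and 0.477 before and 16.0, 7.53 and 3.27 in grafts. Graft 1 was highest for Angpt2, and it was also highest for Pgf. Angpt4 rose from 22.9 ± 3.5 to 76.7 ± 31.3. Ptprb, the endothelial phosphatase that acts on TIE2, went from 5861 ± 683 to 1483 ± 140.7, and Svep1, a matrix protein that binds the related receptor TIE1, from 4281 ± 850 to 2470.3 ± 374.8. Of 5 tested genes in this list 2 were called higher and 3 lower. With ribosomal protein genes at no change Angpt4 was not called (0.88, adjusted p = 0.248, limma).

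Of 14 genes of the Slit, Robo and netrin pathways, 8 were tested, of which 6 rose, 1 fell and 1 did not pass. The list includes the families of Robo4 and of its partner UNC5B. No netrin gene was tested, since Ntn1 and Ntn4 were outside the table. Slit2, a secreted guidance ligand, had 44.4, 28.4 and 59.0 normalized counts before grafting and 522.2, 590.6 and 430.3 in grafts. Unc5b, which encodes the partner of ROBO4, went from 310.2 ± 34.6 to 1395 ± 119, which is 2.17 on the log2 scale (SE 0.12, adjusted p = 1.04e-05, limma), in the opposite direction to Robo4. Slit1 rose by 1.79 and Flrt2, another ligand of UNC5 receptors, by 1.52 on the log2 scale, and Robo2 fell by 2.55. With ribosomal protein genes at no change 2 of these genes were called higher.

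Of 7 genes of signals that promote lymphatic growth, 5 were tested, 4 were called higher and 1, Ramp2, lower, beside 41.3% of all tested genes called higher. Ccbe1, a secreted factor needed to activate VEGF-C, had 72.0, 43.6 and 35.4 normalized counts before grafting and 780.4, 1468 and 1666 in grafts, which is 4.66 on the log2 scale (SE 0.34, adjusted p = 4.15e-05, limma). Adamts3, the protease that cleaves VEGF-C and reelin, went from 11.3 ± 0.5 to 51.7 ± 24.6, and its call was lost without replicate 3 before grafting (adjusted p = 0.0551) or without graft replicate 3 (adjusted p = 0.0513), and under the ribosomal scaling (adjusted p = 0.15), by limma. Adm, the gene of adrenomedullin, rose from 169.9 ± 39.0 to 583.4 ± 89.9, and Ramp2, a subunit of its receptor on endothelium, fell from 1056 ± 138 to 400.2 ± 52.4. The ligand gene Figf and the receptor gene Calcrl were outside the table.

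**Figure D3:**
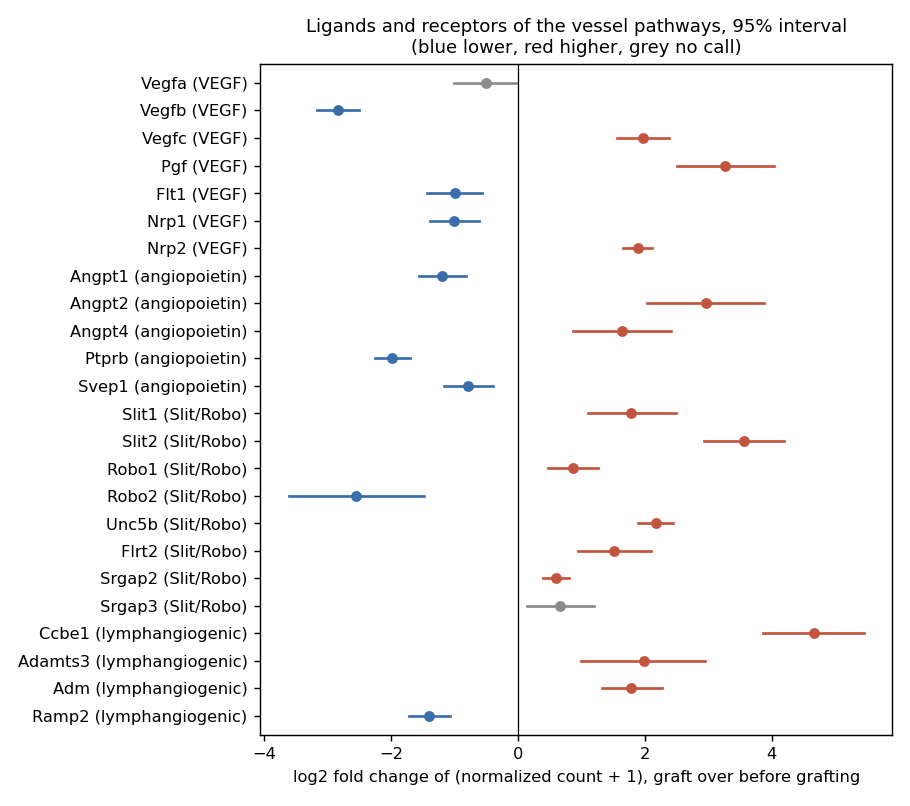
Log2 fold change of (normalized count + 1), graft over before grafting (horizontal axis), for tested genes of the VEGF, angiopoietin, Slit/Robo and lymphangiogenic lists, with lines for the 95% interval of the limma fit, red for called higher, blue for called lower and grey for no call. Ccbe1 lies furthest to the right at 4.66 and Vegfb furthest to the left at -2.83, and Vegfa, in grey, is at -0.50.

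Genes of the reelin pathway moved in both directions beside Reln. The receptor gene Vldlr, which adipocytes and macrophages also express, went from 1808 ± 121 to 349.3 ± 177.0, while the other reelin receptor gene, Lrp8, went from 156.8, 60.8 and 127.9 to 337.5, 305.5 and 319.5. Dab1, the adaptor of both receptors, was at 14.2 ± 4.0 and 1.3 ± 2.2, and its call was lost without replicate 1 (adjusted p = 0.0601) or replicate 3 (adjusted p = 0.086) before grafting, by limma. The proteases Adamts2 and Adamts14, relatives of ADAMTS3, rose by 1.65 and 2.39 on the log2 scale. Of 6 tested genes 4 were called higher and 2 lower. With ribosomal protein genes at no change 2 were called higher, and Lrp8 (0.80, adjusted p = 0.252, limma) and Adamts3 were not.

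Of 7 genes whose products bind podoplanin or link it to the cytoskeleton, 6 were tested, 4 rose and 1 fell. Cd44, the hyaluronan receptor that podoplanin binds, went from 920.1 ± 206.1 to 9604 ± 2109, Cd9, a tetraspanin, from 646.3 ± 53.7 to 3277 ± 1058, and Msn, the gene of moesin, from 7672 ± 577 to 18438 ± 993. Lgals8, the gene of galectin 8, rose from 1053 ± 50.1 to 1691 ± 64.9, a log2 fold change of 0.68 that turned to -0.10 with ribosomal protein genes at no change. Ezr, the gene of ezrin, had a log2 fold change of 0.43 (adjusted p = 0.149, limma) that turned to -0.35 under the same scaling. Clec1b, which encodes the platelet receptor CLEC-2, went from 47.3 ± 9.4 to 17.4 ± 2.9, with a call lost without replicate 1 (adjusted p = 0.0714) or replicate 3 (adjusted p = 0.0647) before grafting, by limma.

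Caveolae are the pits that PLVAP diaphragms close, and adipocytes are rich in them as well. Of 6 tested caveola genes 5 fell, with Cavin2 at -3.58, Ehd2 at -1.83, Cav2 at -1.66 and Cav1 at -1.59 on the log2 scale. Pacsin2, at 0.45, was called higher, but it was not called under any of the 4 other scalings, turned to -0.33 with ribosomal protein genes at no change, and lost its call without 1 library for 5 of 6 libraries, graft replicate 3 being the exception. Cav1, the gene of the main coat protein, went from 24209 ± 2792 to 8045 ± 823.

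Of 12 genes of sprouting tip cells 11 were tested, and 9 rose, 2 did not pass and none fell, beside 41.3% of all tested genes called higher. Apln and Nid2, among the 9, were each called under 3 of the 4 other scalings. Esm1, a proteoglycan secreted by tip cells, had 31.6, 20.3 and 33.4 normalized counts before grafting and 938.0, 795.2 and 273.0 in grafts, which is 4.36 on the log2 scale (SE 0.45, adjusted p = 0.00026, limma). Plaur, the urokinase receptor, which myeloid cells also make, rose by 4.10 on the log2 scale. Pgf, Angpt2 and Unc5b, described above, belong to this list too. The tip cell median was 2.17, against 0.28 for all tested genes, and the blood endothelial median was -0.78. The tip cell genes did not share an order over the grafts. Esm1, Pgf, Angpt2, Apln and Kcne3 were each highest in graft 1 and lowest in graft 3. Plaur, Unc5b, Cxcr4 and Adm were highest in graft 2, and Nid2 and Aplnr in graft 3. Of the blood endothelial members, Kdr and Robo4 had the order of Esm1, and Tek and Plvap did not.

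The genes most like each member were found by the root mean square difference of log2(value + 1) over the 6 libraries, each gene centred on its own mean. Kdr was closest to Prdx3 and Chp1 (0.041 for each), Tek to Fam149b (0.040) and Rnf123 (0.060), and Robo4 to Pomgnt2 (0.038) and Fam120aos (0.066). Plvap was closest to Kctd20 (0.026) and Tmub2 (0.029), and Reln to Sept6 (0.059) and Icosl (0.110). Pdpn was closest to Rab20 (0.136) and Gpr176 (0.144), Prox1 to Pm20d1 (0.247) and Crispld1 (0.256), and Mmrn1 to Zfp641 (0.780) and Ces2e (0.953). The nearest other member was Robo4 for Kdr and Kdr for Robo4 (0.155), Kdr for Tek (0.215) and Mmrn1 for Prox1 and Prox1 for Mmrn1 (1.22). For the lymphatic genes Reln and Pdpn it was a blood endothelial gene, Kdr (0.366) and Plvap (2.245), and for Plvap it was Tek (0.764). Each member had closer genes outside the set than within it. The search outside covered the 10854 tested genes, less those with predicted names, against only a few members. That order was thus nearly fixed in advance and does not show whether the members vary together. With 2 groups the difference between the groups makes up most of each pattern.

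**Figure D4:**
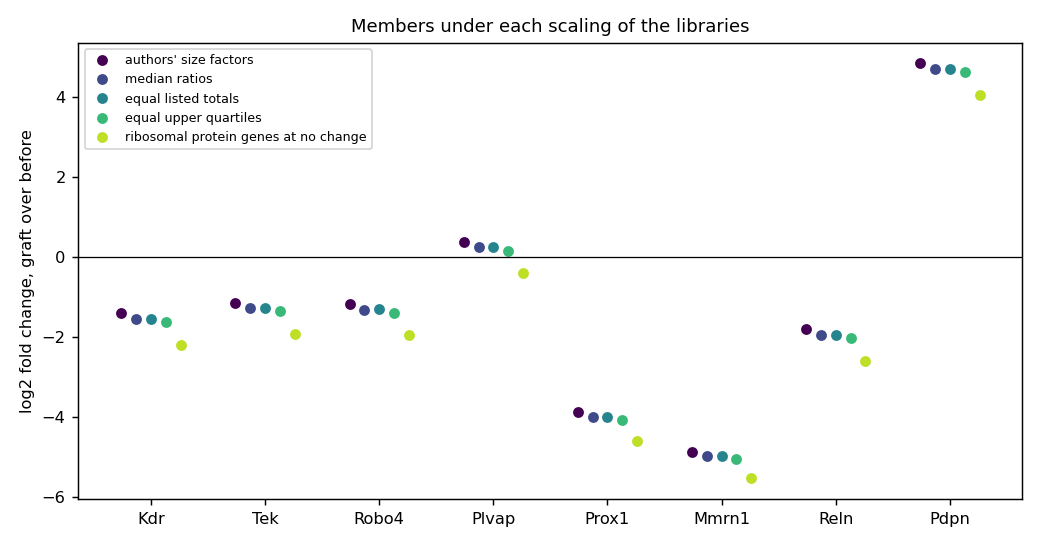
Log2 fold change (vertical axis), graft over before grafting, of each of the 8 genes with the authors' size factors and with 4 other scalings of the libraries, one point for each scaling. Plvap goes from 0.38 to -0.40 with ribosomal protein genes at no change, and the 7 other genes keep their direction, Kdr between -2.18 and -1.40 and Pdpn between 4.07 and 4.85.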

How the data were processed

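Total RNA of fat was extracted with Trizol and made into Illumina libraries, per the labels. The deposited values are a signal per gene: the authors' read counts divided by 1 size factor for each library. This was read from the values, since 100.0% of them were whole multiples of 1 step in each library (within 0.01 reads). The steps were 0.96979 to 1.01304, and reads are values divided by the step. Values in the 6 single-library tables and in the series table were identical. Deposited gene lengths (unit: other, in base pairs) gave values per kilobase, and the deposited group means were not used. HISAT2 2.0.5 and Bowtie 0.12.2 appear in the submitters' processing notes, as do the builds mm9 and mm8. The coordinates match GRCm38: of 12163 genes, 12151 were found in GENCODE M21 and 12011 lay within 1000 bp of it at both ends. The sources used here do not give the counter, its use of strand, the normalization tool or the filter on genes.

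In R 4.3.3, limma 3.58.1 was run on log2(value + 1) (trend, robust, group as the only term, two-sided) for genes with at least 10 in at least 3 libraries. The limma p-values were adjusted by Benjamini-Hochberg over 55450 annotated genes, counting each untested gene as a p-value of 1, and the threshold was 0.05. The variance prior rests on a table selected for difference. The fit was tested on simulated data. Tables were made in Python 3.11.15 with pandas 2.3.3 and numpy 2.4.6. Named were the members, all tested genes of the VEGF, angiopoietin, lymphangiogenic, reelin and podoplanin lists, up to 4 called genes in the main direction and 2 in the other for each further list, and the 2 nearest genes of each member. Other list genes are named as absent, not called or list contents, or for their values by library, under another scaling or without 1 library. The members and lists were chosen with earlier results of these data known. A pair of marker genes of other cell types is not reported here, and the sums and counts of their lists leave them out. A symbol that the table gives as a date was replaced from GENCODE by gene ID (Sept6). Alternatives were other pseudocounts, filters, scalings and adjustment, a replicate block, and leaving out each library.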

Additional observations from a re-analysis of the deposited data

How the results depend on the processing

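Across 15 alternatives, Kdr, Tek, Robo4, Prox1, Reln and Pdpn kept their direction and their call. Plvap reversed to -0.40 with ribosomal protein genes at no change (adjusted p = 0.0372, limma). The number of the 8 genes called higher went from 2 to 1 with median ratios, equal listed totals, upper quartiles, the ribosomal scaling and the replicate block, and was 1 to 2 when a library was left out. The number called lower was 5 to 6 when a library was left out and 7 under the ribosomal scaling. Mmrn1 missed the threshold with a pseudocount of 0.5 (adjusted p = 0.0596) and with equal listed totals (adjusted p = 0.053), by limma. When a library was left out, the blood endothelial list had 8 to 13 genes called lower and the lymphatic list 5 to 6. Ribosomal protein genes at no change also reversed Pacsin2 (-0.33), Lgals8 (-0.10), Ezr (-0.35), Hes1 (-0.13), Kctd20 (-0.38) and Tmub2 (-0.44). That scaling moved the median log2 fold change of all tested genes from 0.28 to -0.50 and left 25.3% of the calls higher, against 51.3%. For median ratios the median was 0.15 and 43.7% of calls were higher. For equal totals these were 0.15 and 43.6%, and for upper quartiles 0.08 and 40.8%. Without the filter the median was -0.30 over 12163 genes. Of the 109 other genes named by the rule given above, 11 lost their call without 1 library. Foxc2, Ccr7, Notch3, Mbp, Fap and Dcn, which are named outside that rule, also lost theirs when some single libraries were left out. Of 660 counts over other lists, 592 stayed within 1.5 times. The titles' numbers were looked at as pairs: same-numbered libraries, after removing group means, correlated at -0.157, -0.127 and 0.041. Replicate 1 before grafting correlated best with graft 2 (0.146). With 3 libraries in a group, removing the means forces these values to balance around 0. They therefore cannot show whether the numbers stand for pairs. With the replicate block 6 of the 8 genes were called lower and 1 higher, Plvap missing at an adjusted p = 0.078 (limma). The planned edgeR and DESeq2 alternatives were not run. The full depth is unknown, since the table covers listed genes only, and Prox1 and Mmrn1 rest on 48 and 74 reads over the 3 grafts. Counts of reads carry counting error only.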

Other observations

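Of 8 tested mural cell genes, which mark pericytes and vascular smooth muscle, 6 were called lower and 2 higher. Cspg4, the pericyte proteoglycan NG2, went from 2365 ± 425 to 341.1 ± 92.2 (SD, n = 3), Myh11, the smooth muscle myosin, from 1531 ± 155 to 383.3 ± 58.1, and Abcc9, a pericyte channel subunit, from 2111 ± 157 to 839.2 ± 289.4. Notch3, at -0.93 on the log2 scale, lost its call without 1 library for 5 of 6 libraries, graft replicate 1 being the exception. Higd1b, at 88.7 ± 20.0 and 31.1 ± 16.3, was called lower, and its call was lost without 1 library for 5 of 6 libraries, graft replicate 1 being the exception. Pdgfrb, the receptor gene shared by pericytes and fibroblasts, rose from 1623 ± 123 to 5229.9 ± 337.8, and Acta2, which myofibroblasts also make, from 1244 ± 43.8 to 3870 ± 583.

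Of 5 tested genes of endothelial activation, 3 were called higher (2 with ribosomal protein genes at no change), 1 was called lower and Sele did not pass the test. Csf3, the granulocyte growth factor gene, went from 1.3 ± 1.5 to 1244 ± 276, the leukocyte adhesion gene Icam1 from 817.5 ± 186.1 to 2816 ± 422, and Selp, the gene of P-selectin, from 103.6 ± 14.4 to 359.7 ± 177.6. Vcam1 fell from 2092 ± 189 to 1453 ± 104. Of 6 tested Notch genes, 2 were called higher, 1 lower and 3 neither, while 1 was called higher and 3 lower under the ribosomal scaling. Rbpj, the transcription factor of the pathway, went from 1304 ± 181 to 4148 ± 458, and the ligand gene Jag2 from 569.9 ± 133.5 to 232.2 ± 42.1. Hes1 was called higher at 0.64 on the log2 scale, which turned to -0.13 with ribosomal protein genes at no change, and the call was lost without replicate 3 before grafting or without graft replicate 2 or 3 (adjusted p up to 0.0635, limma). The 1 listed epithelial gene of 4, Cdh1, was at 34.1 ± 4.5 and 74.5 ± 20.4, and no skeletal muscle marker was in the table. Most of these genes are made by several cell types, and which cells carried them was not tested.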
